A study of Homo sapiens with 2 samples.

Results

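The proteasome genes described here are the 48 genes of the deposited table whose symbol is PSM, a letter from A to G and a number, out of 50868 genes in all; pseudogenes and antisense RNAs with longer symbols were left out. They were followed in 2 RNA-seq libraries of cultures labelled HepG2, a human hepatocellular carcinoma line: an untreated, wild-type parental culture and a culture selected for resistance to sorafenib, a multi-kinase inhibitor. Selection began at 2.5 µM and went up by 0.5 µM at a time to 7 µM, at which the cells grew normally; its treatment label is sorafenib. Clonality was not stated. Each group had 1 library, with total counts of 18067146 (parental) and 16811907 (resistant), so no value has an SD, no test of the conditions was possible, and every interval covers counting error only. Resistance and any other difference between these cultures or libraries cannot be told apart. Of 8 hepatocyte markers, 7 had 0 counts in both libraries (ALB, AFP, APOA1, APOB, TTR, SERPINA1 and FOXA2), and HNF4A had 2 counts in each, so the defining genes of the labelled liver line were absent; the cultures are called here by their labels. Of 5 lymphoid and myeloid markers, 4 were at 0 in both libraries, PTPRC, CD3E and LYZ among them, and the list summed to 7 parental and 5 resistant counts. Of 5 fibroblast markers, COL1A2 and PDGFRA were at 0. The other markers of that list, COL1A1, COL3A1 and LUM, together held all of its 6599 parental and 6094 resistant counts (364.2 and 363.5 CPM). The summed levels of these lists differed little between the libraries, and their part in the results was not tested.

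The proteasome is the barrel-shaped protease that degrades most ubiquitin-marked proteins of the cytosol and nucleus. Its core particle is built from rings of alpha (PSMA) and beta (PSMB) subunits, and 3 of the beta subunits carry the active sites. A regulatory particle of ATPases (PSMC) and non-ATPases (PSMD) recognises, unfolds and admits the substrate. Other activators (PSME) can take its place, and dedicated chaperones (PSMG and some PSMD genes) guide assembly. When proteasome activity is short, the transcription factor NFE2L1 is known to raise subunit genes together.

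The proteasome genes as a whole stood at nearly the same level in both libraries, and 1 gene departed from that: PSME3, the gene of the nuclear activator PA28 gamma, was 2.59-fold lower in the resistant library. Levels are given as CPM, the count per 1e6 counts of the library after TMM scaling, and the log2 ratio is that of resistant CPM + 1 over parental CPM + 1. Measured genes are those that reached 1 CPM in at least 1 library, which held for 44 of the 48. The 48 genes together had 88543 parental counts, 0.490% of the library (95% Wilson interval 0.487 to 0.493). In the resistant library they had 80613 counts, 0.480% (0.476 to 0.483). Without PSME3 the shares were 0.473% in both libraries, with a ratio of summed CPM of 1.01 (95% exact interval 0.996 to 1.02). In bulk RNA a smaller number of cells that express a gene and less RNA per cell cannot be told apart.

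Of the 44 measured members 23 had a log2 ratio above 0, where 49.7% of the 14686 measured genes did, and 21 had one below 0, where 50.3% did. The median log2 ratio was 0.01, beside -0.002 over all measured genes. With another scaling, by RLE factors, 20 members were above 0. By a small size rule of 1.2-fold, applied to this log2 ratio, 4 members were higher in the resistant library (9.09%) against 15.9% of measured genes, and 5 were lower (11.4%) against 14.6%. In either direction this was 20.5% of members against 30.5% of measured genes. By a 2-fold rule none was higher, where 1.31% of measured genes were, and 1 was lower, where 0.994% were. In either direction this was 2.27% of members against 2.3% of measured genes, nearly the same share. Counting error weighs less on well-expressed genes, and among the 10403 genes that reached 10 CPM the 1.2-fold rule took 23.3% in either direction, against 20.9% of the 43 members at that level. At that level 0.865% of genes were lower by 2-fold, and 1.99% passed that rule in either direction. The share of members past the rule was thus near that of genes of at least 10 CPM. The members nearest to the 1.2-fold line were PSMA6 just past it, at a log2 ratio of 0.28, and PSMG2 just within it, at -0.24.

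**Figure D1:**
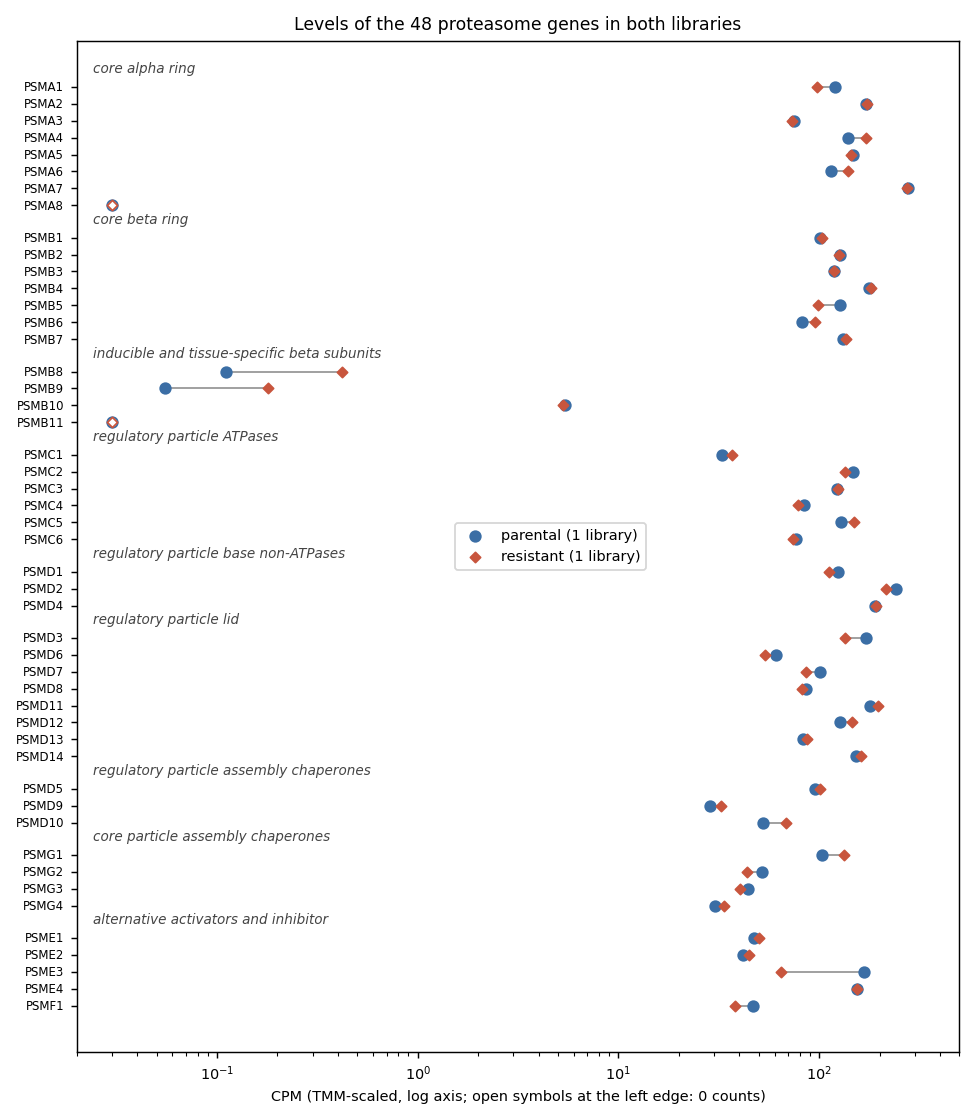
CPM of the 48 proteasome genes on a log axis, by structural class, with circles for the parental and diamonds for the resistant library (1 library each; open symbols at the left edge mark 0 counts). Nearly all pairs of symbols lie close together, while PSME3 separates (168 against 64.9 CPM) and PSMB8, PSMB9, PSMA8 and PSMB11 have few or no counts.

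**Figure D2:**
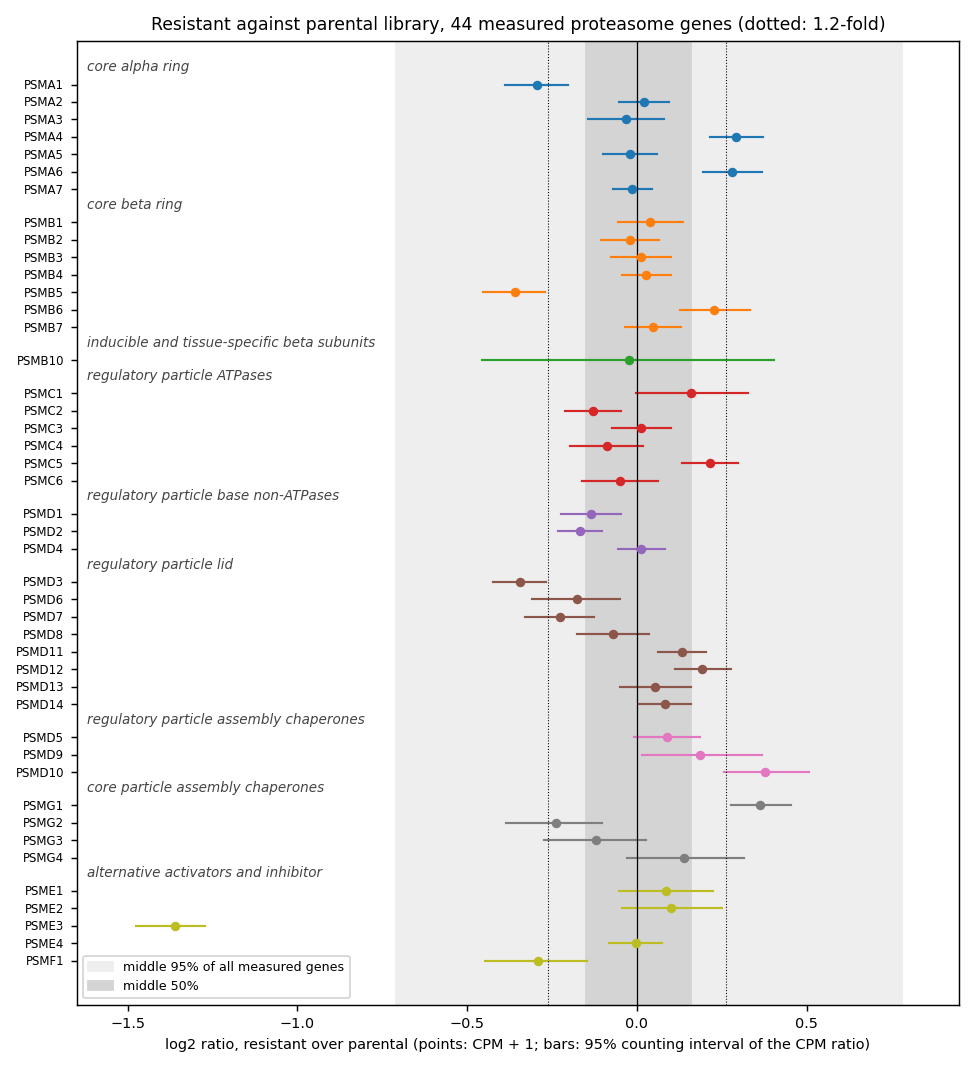
Log2 ratio of the resistant over the parental library for the 44 measured proteasome genes, by class; bars are 95% counting intervals, grey bands hold the middle 50% and 95% of all measured genes, and dotted lines mark 1.2-fold. PSME3, at -1.36, lies outside the middle 95% of measured genes, whose lower edge is -0.71; the other 43 members lie between -0.36 and 0.38.

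The alpha ring, whose subunits form the gate of the core, had members on both sides of 0. Its 7 standard genes had a median log2 ratio of -0.01 and summed to 18933 parental and 18018 resistant counts, a ratio of 1.03 (1.01 to 1.05). PSMA4 had 2523 parental and 2860 resistant counts (139 and 171 CPM), a ratio of 1.23 (1.16 to 1.29), the highest of the ring. PSMA6 followed with 2072 and 2330 counts, a ratio of 1.22 (1.15 to 1.29). PSMA1 was lowest, with 2177 and 1641 counts (120 and 97.9 CPM) and a ratio of 0.815 (0.764 to 0.869). The remaining standard members PSMA2, PSMA3, PSMA5 and PSMA7 had log2 ratios between -0.03 and 0.02. PSMA8, the alternative alpha subunit of the testis, had 0 counts in both libraries, which allows up to 3 counts, or a parental level of 0.166 CPM and a resistant level of 0.179 CPM.

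In the beta ring the 3 genes of the active subunits went different ways. PSMB5, which carries the chymotrypsin-like site that proteasome inhibitors such as bortezomib bind, had 2304 parental and 1659 resistant counts (127 and 99.0 CPM). It was 1.29-fold lower in the resistant library (1.21 to 1.37), the largest difference of any core gene. PSMB6, the caspase-like subunit, had 1481 and 1607 counts and a ratio of 1.17 (1.09 to 1.26). PSMB7, the trypsin-like subunit, had 2390 and 2286 counts and a ratio of 1.03 (0.976 to 1.10). The parental library thus had more counts of PSMB5 per count of PSMB6 than the resistant one. The 4 structural beta genes PSMB1, PSMB2, PSMB3 and PSMB4 had log2 ratios between -0.02 and 0.04, and the ring summed to 864 and 860 CPM. Nothing but PSMB5 was past 1.2-fold among the 7 standard beta genes.

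The inducible subunits replace the 3 active ones in the immunoproteasome of interferon-treated and immune cells. Of these, PSMB8 and PSMB9 were near the limit of detection, and PSMB10 was low but measured. PSMB8, the counterpart of PSMB5, had 2 parental and 7 resistant counts, a ratio of 3.78 with an interval of 0.720 to 37.3. PSMB9, the counterpart of PSMB6, had 1 and 3 counts, a ratio of 3.24 (0.260 to 170.2). Neither difference was detectable at this depth. PSMB8 made up 0.0867% of PSMB8 and PSMB5 counts in the parental library (exact interval 0.0105 to 0.313) and 0.42% in the resistant library (0.169 to 0.864), so PSMB5 outnumbered it in both. PSMB10, the counterpart of PSMB7, was the 1 measured inducible gene, with 98 and 89 counts, a ratio of 0.982 (0.728 to 1.32). It made up 3.94% (3.21 to 4.78) and 3.75% (3.02 to 4.59) of PSMB10 and PSMB7 counts. PSMB10 shares exons with AC040162.1, which had 43 and 35 counts of its own. PSMB11, the thymus subunit, had 0 counts in both libraries.

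Genes upstream of the immunoproteasome were expressed all the same. Of 12 genes of the interferon-gamma route, all were measured, and 4 had a log2 ratio above 0, where 49.7% of measured genes did. By the 1.2-fold rule 4 were lower, where 14.6% of measured genes were, and none was higher, where 15.9% were. The median was -0.03. NLRC5, a regulator of class I genes, stood at 16.9 and 17.7 CPM. HLA-C had the largest difference, with 517 and 284 counts and a ratio of 0.594 (0.512 to 0.688). TAP1, a subunit of the peptide transporter whose gene lies within the PSMB9 locus on the opposite strand, had 350 and 248 counts and a ratio of 0.766 (0.648 to 0.904). HLA genes are highly similar to each other, so reads may be split between them. PSMB8 and PSMB9 lie next to each other on chromosome 6 (32840717 to 32844703 and 32844136 to 32859585, GRCh38) on opposite strands, and their loci overlap.

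The ATPases of the regulatory particle, a ring that threads the substrate into the core, lay within 1.2-fold in all 6 cases. Their median log2 ratio was -0.02, and they summed to 592 and 598 CPM. PSMC5 was highest, with 2341 and 2515 counts and a ratio of 1.16 (1.10 to 1.23). Its exons overlap those of FTSJ3 on the opposite strand, which had 1784 and 1802 counts. Reads of these genes may be mixed, because the use of strand in counting was not stated. PSMC2 was lowest, with 2660 and 2250 counts and a ratio of 0.914 (0.864 to 0.968). PSMC1 (chromosome 14, 90256495 to 90275429 on the plus strand, GRCh38) stood apart by its level: 595 and 616 counts, or 32.8 and 36.8 CPM, where the next lowest of the 6 genes, PSMC6, stood at 77.1 and 74.5 CPM.

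A processed pseudogene of PSMC1 held most of the counts that could come from either locus. PSMC1P1 (chromosome 3, 68635705 to 68637024 on the plus strand, GRCh38) is an intronless copy within a single annotated exon. It had 2549 parental and 2169 resistant counts, 81.1% (79.7 to 82.4) and 77.9% (76.3 to 79.4) of the counts of the pair. Over the 1320 bases of the PSMC1 coding sequence the copy differed at 1 base, T885A, counted from the first base of the start codon, with PSMC1 first. The difference turns the codon TAT of PSMC1 into the stop codon TAA. The 150 bases around it, coding bases 810 to 959, are shown because they hold the only letter of the coding sequence by which a read can be told apart between the loci; it is in capitals. The copy's stretch is chr3:68636514-68636663, plus strand, and both come from the GENCODE 29 transcripts (GRCh38).
PSMC1: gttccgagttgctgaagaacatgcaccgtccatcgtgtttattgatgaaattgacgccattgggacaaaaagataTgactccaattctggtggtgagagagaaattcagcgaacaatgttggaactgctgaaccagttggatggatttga
PSMC1P1: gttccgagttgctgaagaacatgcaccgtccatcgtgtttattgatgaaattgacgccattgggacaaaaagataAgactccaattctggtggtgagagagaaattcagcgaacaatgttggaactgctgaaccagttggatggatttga

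Summed with the copy, PSMC1 had 3144 parental and 2785 resistant counts, 174 and 166 CPM, above each of the other 5 ATPase genes. Its ratio moved from 1.12 (0.998 to 1.25) for the gene alone to 0.958 (0.910 to 1.01) for the sum, and its log2 ratio from 0.16 to -0.06. The PSMC1 value alone is uncertain, because the rule that assigned reads to these loci was not stated. The same search found a processed copy of PSMC6, AC046176.1, at 98.3% identity over 96.5% of the coding sequence, with 529 and 438 counts. Summed with it, PSMC6 had a ratio of 0.947 (0.886 to 1.01), against 0.967 (0.895 to 1.04) alone. PSMD4 has such a copy in PIPSL (264 and 279 counts), and PSME2 in AC116347.1 (32 and 21 counts).

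**Figure D3:**
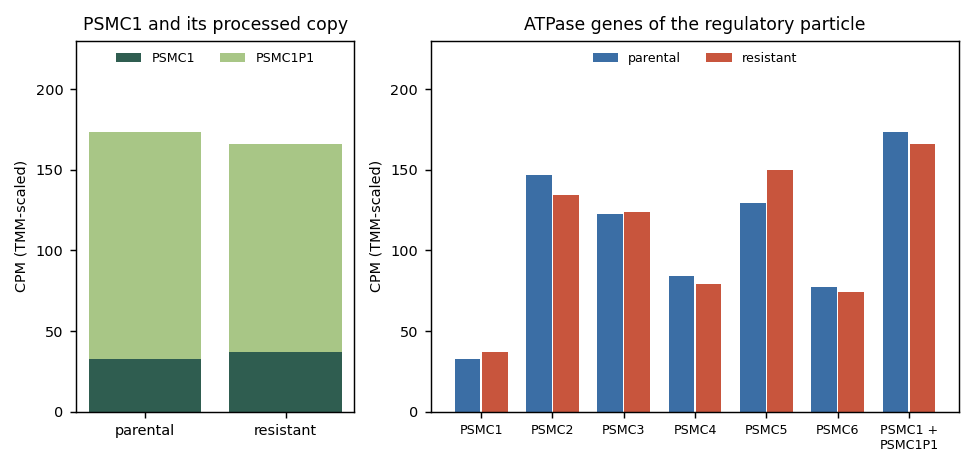
Left, CPM of PSMC1 and of its processed copy PSMC1P1, stacked, in the parental and resistant libraries (1 each). Right, CPM of the 6 ATPase genes and of the PSMC1 sum; PSMC1 alone is the lowest (32.8 and 36.8 CPM) and the sum the highest (174 and 166 CPM).

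The non-ATPases of the base, which include ubiquitin receptors and the scaffold of the particle, were level or slightly lower. PSMD2, a scaffold and docking subunit, had 4368 and 3598 counts (241 and 215 CPM), a ratio of 0.890 (0.852 to 0.931). PSMD1, the other scaffold subunit, had 2237 and 1884 counts, a ratio of 0.910 (0.856 to 0.968). PSMD4, a ubiquitin receptor, had 3447 and 3218 counts, a ratio of 1.01 (0.962 to 1.06). None of the 3 was past 1.2-fold, and their sum had a ratio of 0.936 (0.909 to 0.963). ADRM1, the gene of a further ubiquitin receptor of the base, was near PSMD1, with 2313 and 1938 counts and a log2 ratio of -0.14.

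The lid, which removes ubiquitin chains from the substrate, was split, with 4 of 8 genes above 0 and 4 below. PSMD3 (chromosome 17, 39980797 to 39997960) was lowest: 3108 parental and 2263 resistant counts (172 and 135 CPM), 1.27-fold lower in the resistant library (1.2 to 1.34) and the 1 lid gene past the 1.2-fold rule. PSMD7, a partner of the deubiquitinase, was at 0.854 (0.796 to 0.916) with 1824 and 1441 counts. PSMD14, the gene of the deubiquitinase itself, had 2772 and 2717 counts and a ratio of 1.06 (1.01 to 1.12). PSMD12 was highest, with 2301 and 2434 counts, a ratio of 1.14 (1.08 to 1.21). The lid summed to 961 and 946 CPM, and the lid gene with another kind of symbol, SEM1, had a log2 ratio of -0.09.

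Of the 7 assembly chaperones, all measured, 5 had a log2 ratio above 0, where 49.7% of measured genes did. Their median log2 ratio was 0.14, beside -0.002 over all measured genes and 0.02 over the 14 standard core genes. POMP and PAAF1, assembly factors with other symbols, are not among these 7 and were both slightly below 0. PSMD10, the gene of the chaperone and oncoprotein gankyrin (chromosome X, 108084207 to 108091618 on the minus strand), had 949 parental and 1144 resistant counts (52.4 and 68.3 CPM). Its ratio of 1.3 (1.2 to 1.42) was the highest of the measured proteasome genes. PSMG1, a chaperone of the alpha ring (chromosome 21, 39174769 to 39183851 on the minus strand), had 1866 and 2224 counts (103 and 133 CPM) and a ratio of 1.29 (1.21 to 1.37). Its obligate partner PSMG2 went the other way, with 936 and 731 counts and a ratio of 0.844 (0.765 to 0.931). The products of both genes form 1 heterodimer, and the counting intervals of the 2 ratios do not overlap. PSMG2 overlaps exons of CEP76 and SPIRE1 on the opposite strand, which together had 2380 counts in each library. The use of strand in counting was not stated, so reads of such partners may be mixed.

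The other pair of core chaperones had log2 ratios of -0.12 (PSMG3) and 0.14 (PSMG4). The counting intervals of their ratios, 0.828 to 1.02 for PSMG3 and 0.980 to 1.24 for PSMG4, both include 1. PSMD9 and PSMD5, which assist the ATPase ring as PSMD10 does, were both on the higher side. PSMD9 had 518 and 547 counts, a ratio of 1.14 (1.01 to 1.29), and PSMD5 had 1725 and 1697 counts, a ratio of 1.06 (0.994 to 1.14). Summed, the 3 chaperones of the regulatory particle had a ratio of 1.15 (1.09 to 1.21) and the 4 of the core 1.09 (1.05 to 1.14). By the 1.2-fold rule, which 15.9% of measured genes passed on the higher side, 2 of the 7 were past. POMP, the core maturation factor, and PAAF1, a regulatory particle chaperone, have other symbols and had log2 ratios of -0.01 and -0.05.

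PSME3 (ENSG00000131467; chromosome 17, 42824385 to 42843758 on the plus strand, GRCh38) was the 1 member past 2-fold. It had 3046 parental and 1088 resistant counts, or 168 and 64.9 CPM, and was 2.59-fold lower in the latter (2.42 to 2.78). Among the 4 activator genes it was the most abundant per coding base in both libraries, at 221 (parental) and 85.2 (resistant) CPM per kilobase of coding sequence. That order depended on the scale in the resistant library. There PSME4 was above PSME3 in CPM (154 against 64.9). In the deposited FPKM, PSME1 (11.7) and PSME4 (10.9) were above PSME3 (4.43) in that library. PSME3 encodes the nuclear PA28 gamma ring, which opens the core for substrates that need no ubiquitin, among them cell cycle inhibitors. In the authors' deposited table PSME3 had a log2 fold change of -1.38 and was called DOWN, the 1 call among the 46 members compared there, from the same libraries.

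The other 3 activator genes lay within 1.2-fold. PSME1 and PSME2, whose products form the interferon-inducible PA28 ring, had 861 and 846 counts and 759 and 754 counts, with ratios of 1.06 (0.965 to 1.17) and 1.07 (0.970 to 1.19). Their genes lie near each other on chromosome 14 (24136158 to 24138967 and 24143362 to 24147570) on opposite strands. PSME4, which encodes the large nuclear activator PA200, had 2793 and 2576 counts and a ratio of 0.997 (0.945 to 1.05). PSMF1, the gene of the regulator PI31, had 850 and 640 counts (46.9 and 38.2 CPM) and was 1.23-fold lower in the resistant library (1.11 to 1.36).

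The measured neighbours of PSME3 on chromosome 17 differed far less between the libraries. BECN1, an autophagy gene whose exons overlap those of PSME3 on the opposite strand, had 831 and 821 counts and a ratio of 1.07 (0.969 to 1.18). AOC2, the next gene on the same strand, had 86 and 89 counts. VPS25 and COA3 on the other side had log2 ratios of -0.07 and -0.03. AOC3 had 32 and 24 counts and a ratio of 0.811 (0.457 to 1.42), or -0.19 on the log2 scale with 1 CPM added. No gene of the table shares exons with PSME3 on its own strand in GENCODE 29. Of the 6 measured genes in this stretch, which reaches 60 kb to each side, PSME3 was the 1 past the 1.2-fold rule.

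**Figure D4:**
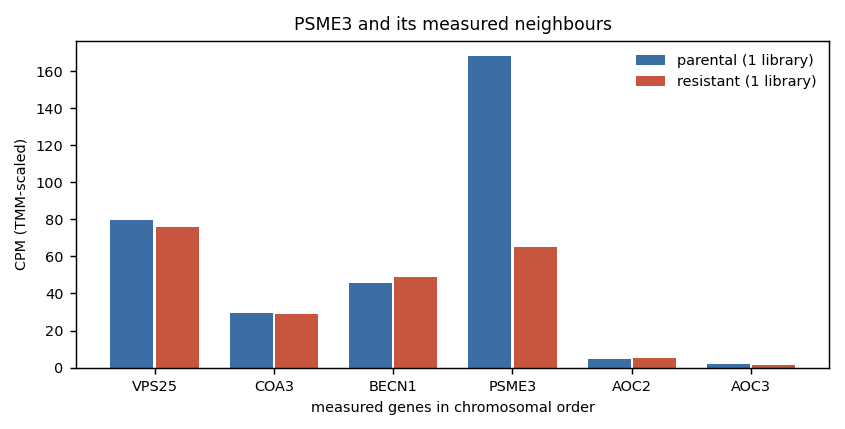
CPM of PSME3 and of the 5 other measured genes within 60 kb, in chromosomal order, in the parental and resistant libraries (1 each). The bars of PSME3 stand at 168 and 64.9 CPM, while the bars of BECN1, which it overlaps, stand at 45.9 and 49.0 CPM.

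Per length, the median of the core genes was above that of the regulatory particle genes in both libraries. On the scale of CPM per kilobase of coding sequence, the 14 standard core genes had medians of 170 (parental) and 191 (resistant). The 17 regulatory particle genes had medians of 92.8 and 84.3, and each of the 14 core genes was above that median in both libraries. PSMA7 was the highest core gene (373 and 370 CPM per coding kilobase) and PSMA3 the lowest (98.0 and 95.9). In the regulatory particle PSMC1 alone was lowest (24.9 and 27.8), and its sum with PSMC1P1 stood at 131 and 126. This scale leaves out untranslated ends, so long ends raise a gene's value. The deposited FPKM gave the same highest core gene, PSMA7 (97.9 and 96.4 FPKM), but PSMA4 as the lowest (9.14 and 11.1 FPKM). On FPKM the core medians were 24.77 and 25.05, and the regulatory particle medians 16.49 and 17.97. On that scale not every core gene was above the regulatory particle median. PSMA1, PSMA3, PSMA4 and PSMA6 were below it in both libraries, and PSMB2 in the resistant library. The length implied by the deposited FPKM was above the longest annotated transcript for all 44 members with over 50 parental counts, by a median of 2.68 times and by 1.31 (PSMB1) to 5.33 times (PSMA1), so the order of genes by FPKM is uncertain; the ratios between libraries given here use counts.

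Among genes that control the proteasome, the factor NFE2L1 was higher and its relative NFE2L2 lower in the resistant library. NFE2L1, the transcription factor that induces subunit genes, had 3730 parental and 5435 resistant counts (206 and 324 CPM), a ratio of 1.58 (1.51 to 1.64). NFE2L2, its relative and the master factor of the antioxidant response, had 2003 and 973 counts (111 and 58.1 CPM) and was 1.9-fold lower in the resistant library (1.76 to 2.06). Of the 9 measured genes of this arm 4 were higher and 2 lower by the 1.2-fold rule, where 15.9% and 14.6% of measured genes were. Those higher beside NFE2L1 were MAFF, at a ratio of 1.48 (1.19 to 1.85), and MAFK, at 1.39 (1.29 to 1.5), both small partners of the factor, and BACH1, a repressor that competes for the same DNA element, at 1.31 (1.22 to 1.4). MAFG, the other small partner in the list, had 1040 and 845 counts and a ratio of 0.878 (0.801 to 0.963). SYVN1, a ubiquitin ligase that acts on NFE2L1, was, beside NFE2L2, the other gene lower by the 1.2-fold rule, at 0.825 (0.739 to 0.921). DDI2, the protease that releases active NFE2L1, and NGLY1, the glycanase that it needs, had log2 ratios of -0.005 and -0.10.

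The other lists around the proteasome had medians near 0, and 30.5% of all measured genes were past the 1.2-fold rule in either direction. Of 14 proteasome-bound enzymes, shuttles and adaptors 1 was past the 1.2-fold rule, AKIRIN2, which serves the nuclear import of proteasomes, with 704 and 818 counts and a ratio of 1.26 (1.13 to 1.39). RAD23B, a ubiquitin shuttle, was at 1.19 (1.15 to 1.23). Of the 8 genes of the VCP segregase, which extracts substrates for the proteasome, VCP was at 0.808 (0.777 to 0.840) with 6000 and 4483 counts and UBXN1, a cofactor, at 1.24 (1.11 to 1.38). Among 6 ubiquitin and E1 genes UBB, a polyubiquitin gene, was the 1 past the rule, with 4223 and 2972 counts (233 and 177 CPM) and a ratio of 0.761 (0.726 to 0.798).

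**Figure D5:**
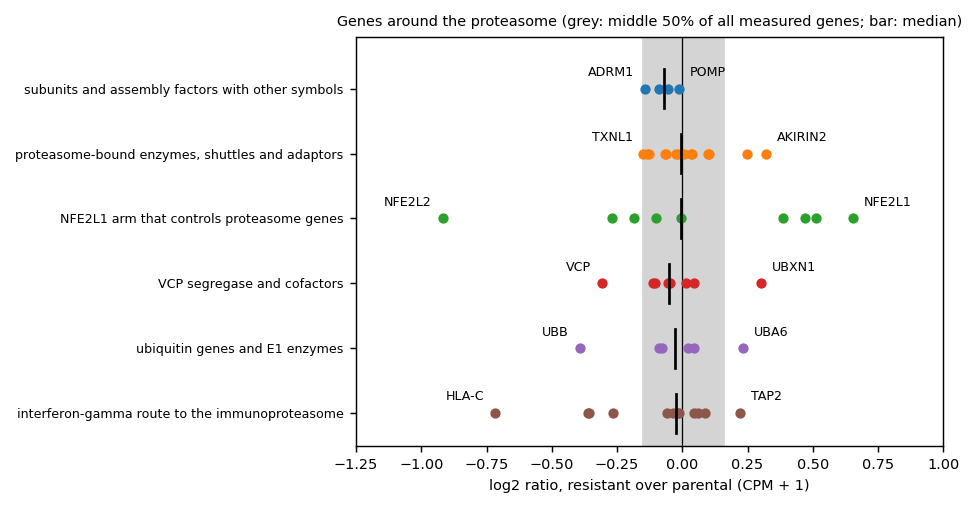
Log2 ratio of the resistant over the parental library for measured genes of the 6 lists around the proteasome; points are genes, black bars medians, and the grey band holds the middle 50% of all measured genes. NFE2L1 (0.65) and NFE2L2 (-0.92) lie at opposite ends of the same list, while the 6 list medians lie between -0.072 and -0.004.

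The start regions of the members were searched for elements known from proteasome promoters. RefSeq sequences (GRCh38.p14) of the 250 bases before an annotated start were given for 42 of the 48 members, in 51 windows; PSMA7, PSMB1, PSMB6, PSMB7, PSMD4 and PSMG3 had no entry. The core of the antioxidant response element, TGACNNNGC, to which NFE2L1 and NFE2L2 bind, was found on either strand in 25.5% of member windows and in 10.9% of all 35116 windows. The ETS site CCGGAAG was found in 21.6% of member windows and 8.52% of all, and the CCAAT box CCAAT in 37.3% and 32.0%. The stricter element TGACTCAGC, which is the first pattern with its free bases fixed, was found in no member window and in 0.46% of all. The 12 measured members with TGACNNNGC had a median log2 ratio of 0.09, with 9 above 0, and the 26 measured members without it had a median of -0.03, with 10 above 0, beside 49.7% of all measured genes. With the ETS site, 10 measured members had a median of -0.03 and 4 were above 0; without it, 28 had a median of 0.01 and 15 were above 0. With the CCAAT box, 17 had a median of -0.02 and 8 were above 0; without it, 21 had a median of 0.03 and 11 were above 0. Whether the log2 ratio goes with any of these elements was not tested. A match describes letters and not binding. Windows of 2 members that were lower by the 1.2-fold rule are shown, with the match in capitals, 5′ to 3′ on the gene's strand. They are PSMD3, with the antioxidant core 37 bases before the start (chr17:39980727-39980806, plus strand), and PSMF1, with the ETS site on the opposite strand 119 bases before the start (chr20:1118447-1118526, plus strand).
PSMD3: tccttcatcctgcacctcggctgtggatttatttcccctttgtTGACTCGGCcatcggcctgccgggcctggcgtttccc
PSMF1: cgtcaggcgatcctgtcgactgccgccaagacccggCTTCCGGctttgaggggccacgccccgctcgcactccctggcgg

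The genes are spread over 17 chromosomes, so no single chromosome carries them, although chromosome 14 has 8 and chromosome 17 has 7. The largest difference, PSME3, and the lowest lid gene, PSMD3, both lie on chromosome 17, as do PSMC5 and PSMD12, the highest genes of their classes. In GENCODE 29, exons of 7 members overlap those of a same-strand gene, and exons of 18 overlap those of an opposite-strand gene. With the counts of same-strand partners added, the numbers of members past 1.2-fold were 4 higher and 5 lower, as without them.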

How the data were processed

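Messenger RNA of 1 parental and 1 resistant culture was sequenced; groups follow the treatment and genotype labels. The authors deposited whole-number counts per gene, not normalized, and FPKM, per the file headers. Per the submitters' processing notes, bcl2fastq 2.19, HISAT2 2.0.4 and StringTie 1.3.0 were used on GRCh38; for annotation release, counting rule and strand, nothing was given in the sources used here. The authors' deposited table of log2 fold changes also holds p-values and q-values, which were not used because it compares 1 library with 1 library.

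Counts were scaled with TMM factors (1.003 parental, 0.997 resistant; edgeR 4.0.16, R 4.3.3), with no model fitted. Ratios are of CPM, with an exact Clopper-Pearson 95% interval given the sum of both counts. A count of 0 allows 3 counts. PCR copies are not independent molecules, so intervals and limits cover counting error only. Copies were sought with BLAST 2.17.0 against GENCODE 29 transcripts (at least 95% identity over 90% of the coding sequence, loci that overlap the member left out). The calculation was tested on simulated data.

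The members, lists and size rules were chosen with earlier results of these data known. Named were members past 1.2-fold, the highest and lowest of each class, members with fewer than 10 counts in both libraries, and up to 3 genes per list; other names were chosen after their values were seen. The alternatives changed scaling, unit, pseudocount (0.25 or 5 CPM), low-value filter and the treatment of copies and overlapping genes.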

Additional observations from a re-analysis of the deposited data

How the results depend on the processing

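Over 11 alternative settings, 1 of which (adding copies found by sequence) was chosen after seeing the data, PSME3 was the 1 member past 2-fold and lower in each, and 5 members were lower by the 1.2-fold rule in each. The median over members ranged from -0.005 to 0.013, with a sign that depended on the setting, and the number of members above 0 ranged from 20 to 25. The number higher by 1.2-fold was 3 with RLE factors, where PSMA6 was at 0.262, and 5 with no low-value filter, which adds PSMB8. That filter also moved the median of the inducible subunits from -0.02 for 1 gene to 0.16 for 3 genes, of which 2 have at most 7 counts. PSMC1 moved from 0.16 to -0.06 with its copies added. The median of the 7 assembly chaperones ranged from 0.12 to 0.14. With a minimum of 10 CPM the inducible subunits gave no value. No paired analysis was possible because both labels carry the number 1 and each group has 1 library. The spread between cultures was not measured, so no difference, PSME3 included, can be set against it, and with few counts PSMB8 and PSMB9 allow no direction.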

Other observations

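Genes with related symbols that the member rule leaves out were also level. PSME3IP1, which encodes a partner protein of PSME3, had 1019 parental and 1013 resistant counts, a ratio of 1.07 (0.984 to 1.17), beside the 2.59-fold lower level of PSME3 itself. PSMC3IP, a meiotic recombination gene named after PSMC3, had 1035 and 951 counts, a ratio of 0.993 (0.909 to 1.09). PSMA3-AS1, an RNA of the strand opposite PSMA3, had 877 and 787 counts, a ratio of 0.970 (0.880 to 1.07), near the 0.978 of PSMA3. These 3 genes were chosen after their values were seen.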
